A study of Mus musculus with 3 samples.

Results

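The pericytes of the cochlear explant were taken as the cells that carried RNA of the mural genes Rgs5, Abcc9, Kcnj8, Gucy1a1 and Gucy1b1. A barcode counted as a pericyte where it held at least 200 genes, at most 20% mitochondrial unique molecular identifiers (UMIs), no UMI of the epithelial gene Epcam and at least 1 UMI of at least 3 of these 5 genes, with Rgs5, Abcc9 and Kcnj8 together at 100 CPM or more (CPM is a gene's UMIs as a share of the cell's UMIs, scaled to 1e6). The rule found 150 cells among 2395 barcodes, of which 1996 passed the filters on genes and mitochondrial UMIs and are called kept cells. The control library held 7 of the 150, Dox replicate 1 held 88 and Dox replicate 2 held 55. Since measured RNA chose the cells, every difference between them and other cells is given as a description, without a test.

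The study cultured whole cochlear explants of 4 to 6 weeks old rtTA/tet-on-Myc/tet-on-NICD mice, in which doxycycline (Dox) turns on the growth regulator MYC and the active intracellular part of NOTCH1 (NICD). All groups carried the 3 transgenes. The control library came from 4 cultures given sterile water, and each of the 2 Dox libraries from 4 cultures given 2 µg/ml Dox for 4 days; the cultures of a library were pooled, and the sources used here do not name the promoter that drives rtTA. No library of Dox on mice without the transgenes was analysed here, so Dox and the transgenes cannot be told apart. The labels name the cells sensory epithelium, a tissue dissected from the explant that here also held cells of vessels and connective tissue.

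Pericytes sit in the basement membrane of capillaries, wrap the endothelial tube and adjust its width. They depend on platelet-derived growth factor from the endothelium, received by PDGFRB, and on NOTCH3. In the cochlea they line the capillaries of the stria vascularis and the spiral ligament. Several genes of the rule belong to 2 relaxing systems: Kcnj8 and Abcc9 encode the pore and the regulatory subunit of the vascular ATP-sensitive potassium channel, and Gucy1a1 and Gucy1b1 encode the subunits of soluble guanylate cyclase, the receptor for nitric oxide. RGS5 shortens signalling by G proteins downstream of contractile receptors.

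Each of these pairs lies side by side in the mouse genome (GRCm38, GENCODE M21). Kcnj8 (chr6:142564837-142571614) and Abcc9 (chr6:142587862-142702315) are 16247 bases apart on the minus strand. Gucy1b1 (chr3:82032006-82074689) and Gucy1a1 (chr3:82092427-82145789) are 17737 bases apart, also on the minus strand. Rgs5 stands alone at chr1:169655501-169695813 on the plus strand. Stretches of 120 bases upstream of their RefSeq starts (GRCm38.p6) that meet no annotated exon are shown because these genes define the cells and because NICD acts on DNA through RBPJ. They end at the base before the start, except that of Abcc9, which covers bases 161 to 42 before it because an annotated exon lies nearer. Capitals mark the RBPJ core TGGGAA or its reverse complement TTCCCA, searched on both strands.
Abcc9, chr6:142702316-142702435, minus strand: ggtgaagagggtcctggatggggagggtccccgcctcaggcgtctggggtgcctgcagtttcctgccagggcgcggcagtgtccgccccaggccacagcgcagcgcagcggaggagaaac
Kcnj8, chr6:142571615-142571734, minus strand: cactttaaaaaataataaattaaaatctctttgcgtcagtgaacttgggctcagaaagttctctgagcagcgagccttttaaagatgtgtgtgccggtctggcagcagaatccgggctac
Gucy1a1, second RefSeq start, chr3:82145074-82145193, minus strand: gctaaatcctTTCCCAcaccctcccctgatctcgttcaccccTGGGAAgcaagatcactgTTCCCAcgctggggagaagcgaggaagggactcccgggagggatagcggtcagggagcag
Gucy1b1, chr3:82074712-82074831, minus strand: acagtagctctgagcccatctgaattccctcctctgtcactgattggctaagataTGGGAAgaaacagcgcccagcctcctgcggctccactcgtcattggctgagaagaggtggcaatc
Rgs5, chr1:169655381-169655500, plus strand: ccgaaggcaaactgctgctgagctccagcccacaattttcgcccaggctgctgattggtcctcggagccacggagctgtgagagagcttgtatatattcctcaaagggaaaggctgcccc
The window of Gucy1a1 held 3 matches and that of Gucy1b1 held 1, while the windows of Abcc9, Kcnj8 and Rgs5 held none. The motif occurs in the 120 bases directly before 10.4% of 32851 RefSeq starts, a window that differs from the one shown for Abcc9. A match describes these letters and is not evidence of binding.

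The median member held 17314 UMIs among controls and 37243 and 26688 UMIs under Dox (replicates 1 and 2), against 6819.5, 11434 and 27728.5 in the other kept cells. Summed over members, the libraries held 109364, 3369724 and 1880488 UMIs. Some barcodes occurred in more than 1 library: the control shared 101 with Dox replicate 1 and 92 with Dox replicate 2, and the Dox libraries shared 68. The deeper barcode of a pair held a median of 152 and 67.8 times the UMIs of the other in the control pairs. Between the Dox libraries the median was 1.14 times. Of the 363 kept control cells, 125 had a shared barcode, and the cause was not tested. No control member, 3 members of Dox replicate 1 and 1 member of Dox replicate 2 had such a barcode, and no barcode was a member in more than 1 library. Little Malat1, a nuclear RNA (under 0.1% of UMIs), was found in no control member, in 9.09% of the members of Dox replicate 1 and in 3.64% of those of Dox replicate 2, against 16.3%, 35.4% and 16.8% of other kept cells.

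The members made up 1.93% of the kept control cells (95% Clopper-Pearson interval 0.779% to 3.93%), 13.8% of those of Dox replicate 1 (11.2% to 16.8%) and 5.52% of those of Dox replicate 2 (4.18% to 7.12%). The intervals of all 3 libraries are apart, and both Dox libraries differ from each other as well as from the control. Intervals cover counting error only. With kept cells that had no Epcam UMI as the denominator, the shares of the Dox libraries were 26.8% and 15.3%. With every cell thinned to 2000 UMIs before the rule was applied, the shares were 0%, 7.16% and 2.91%.

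The name pericyte was checked against markers outside the rule. They went with it in the Dox members, with the limits given here, and in only part of the control members. PDGFRB, the receptor that keeps pericytes on vessels, was not used by the rule. Its RNA was found in 81 of 88 members of Dox replicate 1 and in all 55 of Dox replicate 2. Pdgfra, which marks fibroblasts, was found in 5 and 2 of them. Pdgfrb alone does not set them apart from fibroblast-type cells, defined below, of which 75.0% and 84.8% carried it in the Dox libraries. The pericyte marker Higd1b was found in 40 and 23 Dox members and Vtn in 16 and 15. Pou3f4, an otic mesenchyme gene, was found in 59 and 44. In the control library, Rgs5 came from only 2 of the 7 members, with 80 UMIs between them. Those 2 cells had Notch3, Heyl and Higd1b and no Pdgfra, and 1 of them had Pdgfrb, at 28 UMIs. The other 5 control members had no Rgs5 and no Higd1b, and all 5 had Pdgfra, at 443 CPM of their sum, a fibroblast gene. They passed by the Abcc9 and Kcnj8 UMIs, 9 and 7 in all. Control levels below therefore describe a sum of 7 cells of which 5 go against the label, and for several genes most control UMIs came from 1 cell. For some of these genes the level without that cell is given below, an alternative chosen after seeing the data. Without the cell that held most of its UMIs, each of Notch1, Heyl, Nrarp and Higd1b stood at 11.7 CPM in the control members. Notch3 stood at 46.8 CPM.

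Rgs5 varied widely between members of 1 library. Per cell it reached from 0 to 3654 CPM with a median of 319.8 CPM in Dox replicate 1, and from 0 to 4407 CPM with a median of 524 CPM in Dox replicate 2. Both maxima belong to shallow cells, with 3 Rgs5 UMIs among 821 and 14 among 3177, and the next highest cells had 2926 CPM (87 UMIs) and 3859 CPM (114 UMIs). It was at 0 in 27 of 88 and in 16 of 55 members. Those Rgs5-free members still had Pdgfrb at 374 and 309 CPM, against 327 and 313 CPM in the members with Rgs5, while Higd1b, a mitochondrial protein gene enriched in pericytes, stood at 22.2 and 18.9 CPM without Rgs5 and at 58.5 and 76.9 CPM with it. Abcc9 was detected in 85 of 88 and 53 of 55 members, with per-cell medians of 377 and 298 CPM. A member without Rgs5 had to pass the rule through the other genes, so these detection counts partly follow from the selection. Kcnj8 was found in 68 and 49 members, Gucy1a1 in 83 and 51, and Gucy1b1 in 83 and 54.

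**Figure D1:**
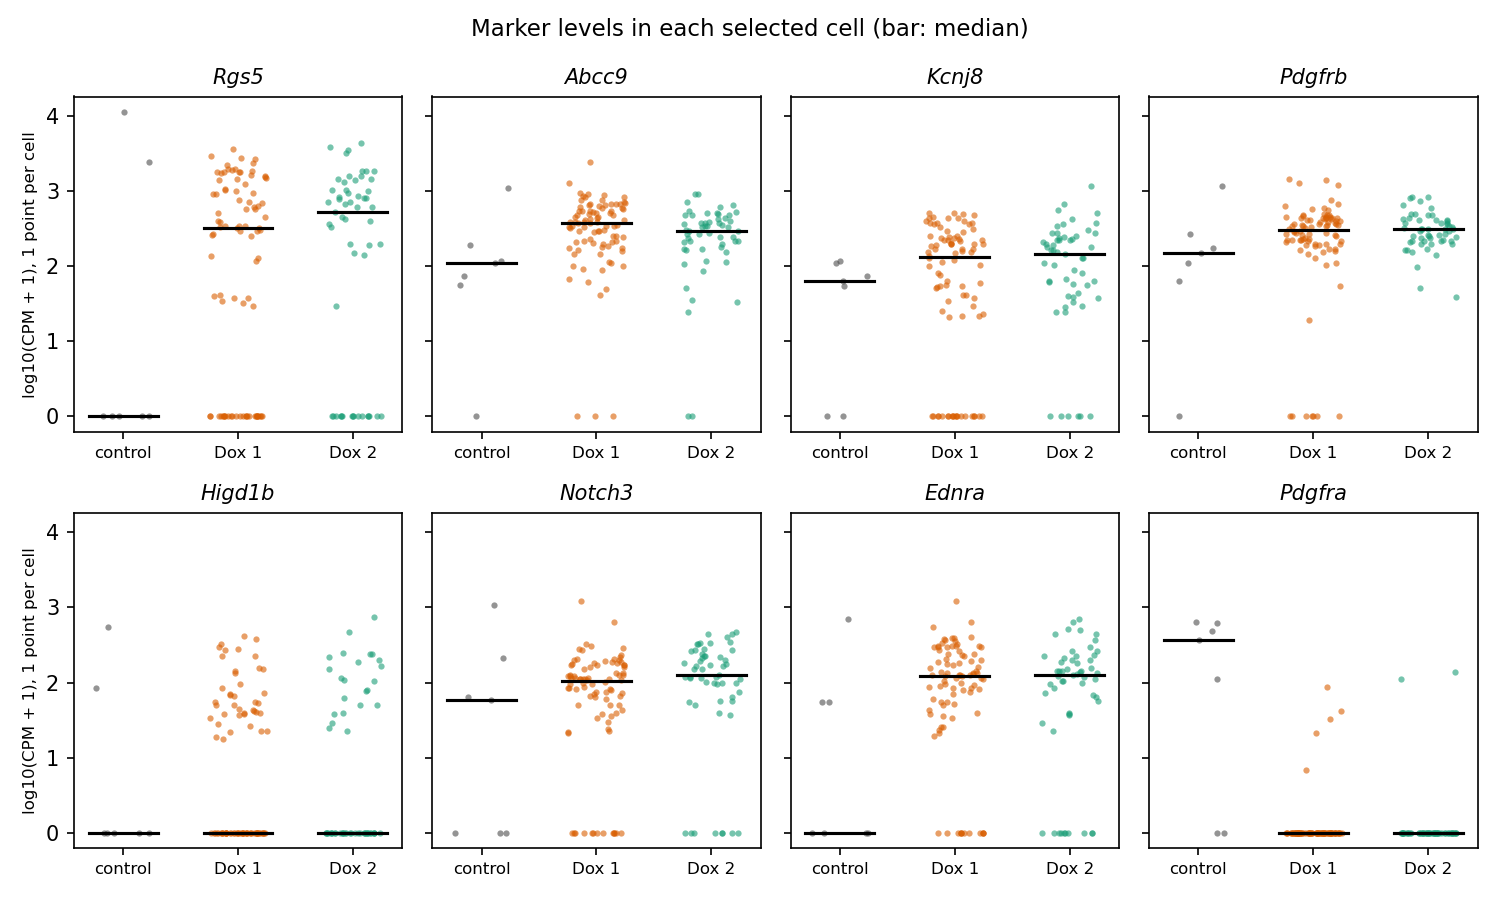
Each point is 1 selected cell, placed by library (control 7 cells, Dox replicate 1 with 88, Dox replicate 2 with 55) on the horizontal axis and by log10(CPM + 1) of the gene on the vertical axis; bars are medians. Rgs5 is at 0 in 27 and 16 Dox cells and in 5 of 7 control cells, Pdgfrb is found in nearly every Dox cell, and Pdgfra is found in 5 of 7 control cells and in 5 and 2 Dox cells.

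The cells at the edge of the rule were few. With exactly 3 of the 5 genes detected there were 4 control, 19 and 5 Dox members, and their Pdgfrb stood at 498, 395 and 307 CPM. The level of Rgs5, Abcc9 and Kcnj8 lay between 100 and 200 CPM in 3, 6 and 2 members. Just outside, 4, 3 and 4 cells failed by the level alone, with Pdgfrb at 156, 243 and 174 CPM. A further 8, 5 and 6 cells had enough of the level but only 2 of the 5 genes, with Pdgfrb at 177, 181 and 141 CPM. Epcam UMIs kept out 1 control cell, with Rgs5 at 8399 CPM and Pdgfrb at 1434 CPM, and 1 cell of Dox replicate 1, with Rgs5 at 678 CPM.

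UMIs were summed over the members and over all other kept cells of each library, and a gene was called where the CPM of the members was at least 4 times that of the others, or at most 0.25 times that, in both Dox libraries. Of 11879 genes with at least 50 UMIs over all kept cells in each Dox library, 282 were called higher (2.37%) and 1068 lower (8.99%). Leaving out every shared barcode gave 253 higher, 245 of them among the 282, and 851 lower, 808 of them among the 1068. The median log2 ratio over all tested genes was −0.26. The ratios of the Dox libraries differed by a median of 0.31 on the log2 scale.

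Since most other kept cells of the Dox libraries carried Epcam, the comparison was repeated against the 240 and 304 other kept cells of the Dox libraries without Epcam UMIs. Against these, 70 of 9038 genes were higher (0.775%) and 404 lower (4.47%). Of the 282 genes, 64 were called higher in both comparisons, which is 22.7% of the 282 and 91.4% of the 70. Against fibroblast-type cells (at least 2 UMIs of at least 3 of Dcn, Lum, Pdgfra, Col1a2 and Col3a1, no Epcam), 59 of 6322 genes were higher (0.933%) and 15 lower (0.237%), with only 4 such cells in Dox replicate 1. The rule used the contrast with other cells, so nothing is read from these counts. The 20 genes with the highest ratios against all other cells were Higd1b, Abcc9, Kcnj8, Aspn, Rgs5, Tmem178, Ramp1, Dlk1, Pde3a, Gucy1a1, Tcf15, Carmn, Lrrc32, Cd248, Gucy1b1, Ednra, Cbfa2t3, Pde1a, Itga1 and Foxs1. All but the RNA gene Carmn, which had too few UMIs to be tested there, were also among the 64. The 5 genes of the rule are in this list because the rule selected on them.

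Higd1b was at 46.9 CPM (Poisson interval 39.9 to 54.8) in the members of Dox replicate 1 and at 63.8 CPM (52.9 to 76.3) in those of Dox replicate 2, against 0.301 and 0.0638 CPM in the other kept cells. The members thus stood 156-fold and 1001-fold above the rest, and 142-fold and 157-fold above the cells without Epcam. It was found in 40 and 23 members only. In the control library 3 UMIs were found, 27.4 CPM (5.66 to 80.2).

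Pdgfrb itself was at 375 CPM in the control members, 342 CPM in Dox replicate 1 and 312 CPM in Dox replicate 2. Their counting intervals (269 to 509, 323 to 363 and 287 to 338 CPM) overlapped, but 28 of the 41 control UMIs came from 1 cell, and without it the control level was 152 CPM. The ratio to all other kept cells was 21.1 and 19.7 in the Dox libraries. Against the cells without Epcam it was 4.11 and 3.45, so Pdgfrb missed the threshold there; those cells include fibroblasts, which also carry it. Fibroblast-type cells had Pdgfrb at 203, 399 and 143 CPM.

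Of 20 further pericyte markers, 16 were tested and 8 were at least 4-fold higher: Higd1b, Foxs1, Des, Pdgfrb, Cspg4, Lhfp, Ndufa4l2 and Ebf1. Their median log2 ratio was 2.42. Cspg4, the NG2 proteoglycan of pericyte surfaces, was at 170.3 and 118 CPM against 8.66 and 3.67 CPM. Against the cells without Epcam 5 of 14 were higher, namely Higd1b, Foxs1, Notch3, Cox4i2 and Rgs4. Foxs1, a forkhead factor of mural cells, was at 76.9 and 74.4 CPM in the members and at 13.9 and 4.68 CPM in the cells without Epcam. Vtn, a widely used pericyte marker, was found in only 16 and 15 members at 11.6 and 13.8 CPM, and Atp13a5 in none.

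The nitric oxide and cyclic GMP list had 6 of 8 tested genes higher and none lower, with a median log2 ratio of 4.50. These include Gucy1a1 and Gucy1b1, on which the cells were selected. Without them, 4 of 6 genes were higher against all other cells, with a median log2 ratio of 3.22, and 2 of 4 against the cells without Epcam. Gucy1a1 was at 73.2 CPM in the control members and at 269 and 376 CPM in the Dox members, against 10.2, 5.96 and 3.28 CPM in the others. Gucy1b1 was at 128, 343 and 356 CPM, against 10.8 and 5.00 CPM in the other cells of the Dox libraries. Outside the rule, Pde3a, a phosphodiesterase that cyclic GMP inhibits, was at 265 CPM in the control members (93.7 CPM without the cell that held 21 of its 29 UMIs) and at 86.1 and 89.9 CPM in the Dox members. Its ratio to the other kept cells was 49.3 and 51.3. Pde1a, Prkg1, the cyclic GMP-dependent kinase, and Gucy1a2 were the others called. Pde1a and Pde3a kept the call against the cells without Epcam.

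Among potassium channel genes only 3 of 9 were tested, Kcnj8, Abcc9 and Kcnma1. Kcnj8 was at 144 and 152 CPM and Abcc9 at 383 and 303 CPM in the Dox members, against at most 1.26 and 2.89 CPM in the others. Kcnma1, the large-conductance calcium-activated channel of smooth muscle, was lower, with 0.890 CPM and 0, beside 8.99% of all tested genes. The other subunit pair of this channel type, Kcnj11 and Abcc8, was at no more than 1.06 CPM.

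Contractile signalling was represented mainly by the endothelin receptor Ednra, the only called gene of 6 tested. Ednra was at 174 CPM (105 to 271) in the control members, at 153 CPM (140.5 to 167) in Dox replicate 1 and at 154 CPM (137 to 173) in Dox replicate 2. In the control library 17 of the 19 Ednra UMIs came from 1 cell, and without it the level was 23.4 CPM, so nothing is read from the control level. Ednra was found in 76 and 45 Dox members, and its ratio was 42.5 and 31.6 against all others and 10.1 and 5.30 against the cells without Epcam. The angiotensin receptor Agtr1a was at 0 in every library's members. Ramp1, the partner of the receptor for the vasodilator CGRP, was at 218 and 251 CPM in the Dox members and at 0 in the 7 control members, where the interval reaches 33.7 CPM.

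Markers of contractile smooth muscle were low. Myh11, Tagln and Cnn1 were at 3.56 and 10.6, 3.26 and 15.4, and 0.297 and 0 CPM in the Dox members. Acta2, smooth muscle actin, was at 31.2 and 65.4 CPM, found in 31 and 17 members, and exceeded both comparators at least 4-fold. Mylk, myosin light chain kinase, did so as well, at 46.0 and 79.2 CPM, and Lmod1 was lower than in all other cells, with ratios of 0.897 and 2.61 against the cells without Epcam. The list had 8 tested genes, and 8.99% of all tested genes were called lower than in all other cells.

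The endothelial list had 3 of 6 tested genes higher, Esam, Emcn and Flt1, but the defining endothelial genes were near 0. Pecam1 was at 2.97 and 5.32 CPM, Cldn5 at 0 and 4.79 CPM, Kdr at 1.78 and 5.32 CPM and Tie1 at 0.297 and 1.06 CPM. One member of Dox replicate 2 supplied 10 Pecam1, 13 Cdh5, 9 Cldn5 and 10 Kdr UMIs. Flt1 was nevertheless found in 52 and 30 members, at 134 and 162 CPM, and Emcn in 73 and 47, at 135 and 132 CPM. Only Esam, a junction molecule, kept the call against the cells without Epcam, at 40.1 and 37.2 CPM.

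Genes of other cell types were low. All 9 tested epithelial genes were lower, among them Krt8 at 2.67 and 3.19 CPM against 961 and 1141 CPM, and Krt18 at 0.594 and 1.60 CPM against 766 and 1106 CPM. The absence of Epcam was required by the rule. Lower genes with the most UMIs in the other cells also included Lcn2, Clu, Gpx2, Zbtb20 and Skp1a. The glial list had 6 of 9 lower, with Sox10 at 0 in all members. The macrophage list had 6 of 10 lower; its summed level was 123 CPM in Dox replicate 1 and 4.79 CPM in Dox replicate 2, against 1016 and 210 CPM in other cells. A single member of Dox replicate 1 held 111 Lyz2, 19 Ptprc and 7 C1qa UMIs. At least 2 defining genes of another type were found in 7.95% and 14.5% of the Dox members. Leaving these members out gave 282 higher genes, 262 of them shared. With the full endothelial, macrophage, glial and melanocyte lists, at 2 UMIs or more per gene, only 33 and 22 Dox members stayed. The endothelial list holds Emcn, Flt1 and Esam, given above.

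Fibroblast genes were not uniform. Col3a1 was at 820.2 and 850.3 CPM and Col1a2 at 231 and 239.8 CPM in the Dox members, at least 4-fold above all other cells. Against the cells without Epcam, Col1a2 was lower in the members, with ratios of 0.846 and 0.701, and Col3a1 stood at 3.63 and 1.35. Lum was below all other cells, at 1.19 and 3.19 CPM. Dcn, a fibroblast proteoglycan, was at 24.6 and 43.1 CPM, found in 9 and 3 members, and at 1765 CPM in the control members, where 190 of 193 UMIs came from 1 cell and the level without it was 32.9 CPM. Coch, the main fibrocyte protein of the cochlea, stood at 1389.9 CPM in the control members (615 CPM without the cell that held 96 of 152 UMIs) and at 6.53 and 4.79 CPM in the Dox members. Pou3f4, an otic mesenchyme factor, was at 429.8, 51.3 and 91.5 CPM.

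**Figure D2:**
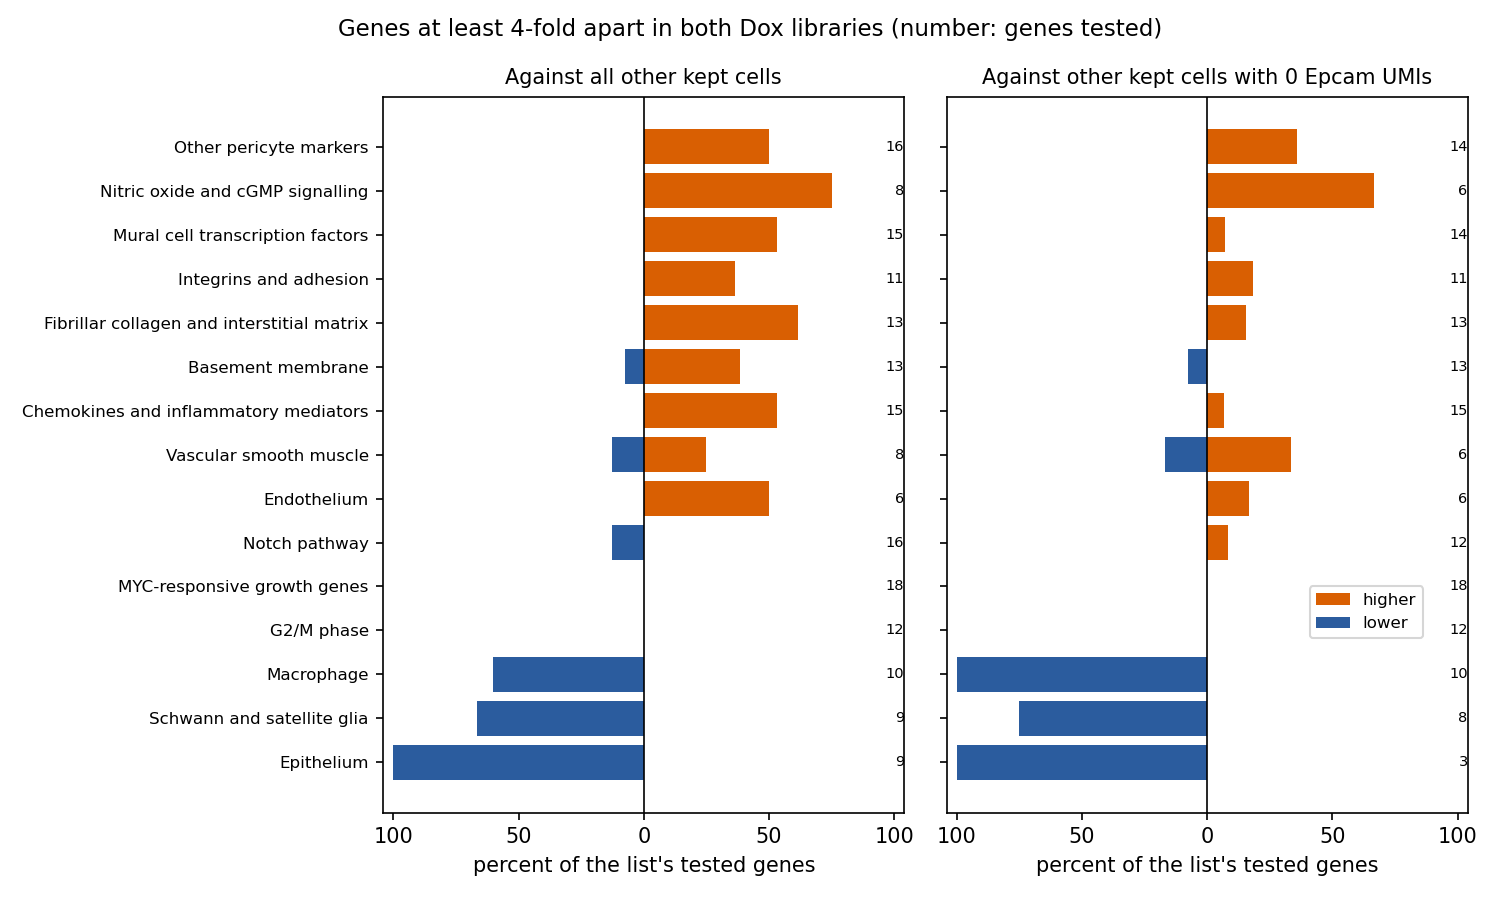
Bars give the percent of each list's tested genes that were at least 4-fold higher (to the right) or lower (to the left) in the selected cells of both Dox libraries, against all other kept cells and against other kept cells without Epcam; the number at the edge is the genes tested. The nitric oxide list shows 6 of 8 and 4 of 6 higher genes, 2 of them genes of the rule in each case. The fibrillar matrix, chemokine and transcription factor lists go to 2 of 13, 1 of 15 and 1 of 14. Blue bars are lower genes.

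In the basement membrane list 5 of 13 tested genes were higher, Lama4, Nid1, Sparc, Col4a1 and Col4a2, and Lama5, an epithelial and endothelial laminin chain, was lower. That 1 lower gene of 13 stands beside 8.99% of all tested genes called lower. Col4a1, the main collagen of vessel basement membranes, was at 671 and 721 CPM against 123 and 94.9 CPM. Against the cells without Epcam (421 and 227 CPM) its ratio was 1.60 and 3.18, and none of the 13 was called higher. Of 13 fibrillar and interstitial matrix genes 8 were higher against all cells and 2 against the cells without Epcam. Those were Col6a1 and Col6a2, which encode microfibrillar collagen chains. Col6a1 was at 146 CPM in the control members and at 414 and 415 CPM in the Dox members, 6.70 and 5.43 times the level in cells without Epcam.

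Of 11 tested adhesion genes, 4 were higher: Itga1, Cdh6, Gjc1 and Itgb5. Itga1, the collagen-binding integrin chain, was at 716 and 622 CPM against 24.1 and 11.4 CPM, and 13 UMIs of 1 control member gave 119 CPM. Gjc1, the gap junction protein connexin 45, was at 185 and 223 CPM. Itga1 and Gjc1 were the members of the list that also stood at least 4-fold above the cells without Epcam.

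Of 15 tested mural transcription factors 8 were higher: Foxs1, Hic1, Ebf2, Prrx1, Mef2c, Foxd1, Ebf1 and Tbx18, with a median log2 ratio of 2.51. Foxs1 alone kept the call against the cells without Epcam. Tcf15, a basic helix-loop-helix factor outside the list, was at 40.7 and 54.8 CPM, found in 55 and 26 members, and at most 3.97 CPM in either comparator of the Dox libraries. Nkx3-2, Tcf21 and Myocd were at 0 in all members.

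**Figure D3:**
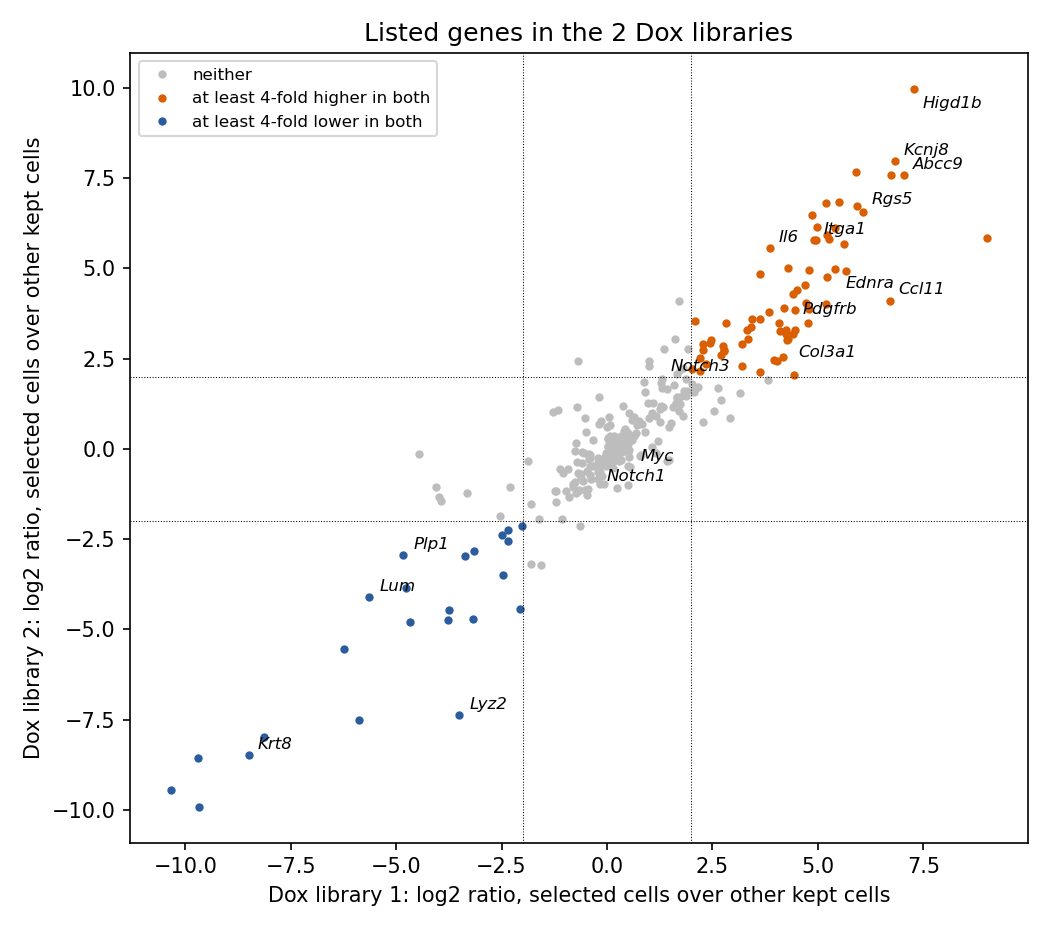
Each point is 1 gene of the lists or the named genes, placed by the log2 ratio of its CPM in the selected cells over other kept cells in Dox replicate 1 (horizontal) and Dox replicate 2 (vertical); dotted lines mark 4-fold. Of 330 tested genes 311 are drawn, since 19 had no UMI in the selected cells of a library. Rgs5, Abcc9, Kcnj8 and Higd1b lie at the upper right, Krt8 at the lower left, and Notch1 and Myc near 0.

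The transgenes raise the question of what Notch and MYC genes did in these cells. With 7 control members, under the minimum of 10 set for a fit, no test of Dox against control was made. Notch1 was at 36.6 CPM (4 UMIs, 9.97 to 93.6) in the control members, at 379 CPM (358 to 400.3) in Dox replicate 1 and at 255 CPM (233 to 279) in Dox replicate 2. The other kept cells had 43.7, 441 and 332 CPM. The Dox members were thus above the sum of the 7 control members by more than counting error. They were slightly below other cells of their own library, by ratios of 0.859 and 0.770. In the 2 control members with Rgs5, Notch1 was at 116 CPM (3 UMIs), against 371 and 234 CPM in the Dox members with Rgs5. With 3 UMIs, nothing is read from that comparison. Notch1 was found in 79 of 88 and 52 of 55 Dox members and in 2 of 7 control members. When every cell was thinned to 2000 UMIs, it was found in 54.7% and 40.0% of Dox members and in 42.9% and 38.9% of the other kept Dox cells. Whether these UMIs come from the transgene or from the gene itself was not tested.

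Among direct Notch targets, Hey1, a target of vessels, was at 9.14 CPM (0.232 to 50.9) in the control members and at 226 and 176 CPM in the Dox members. Heyl, a target typical of mural cells, was at 36.6 CPM (9.97 to 93.6), 179.8 CPM and 177 CPM. Nrarp, a feedback inhibitor of Notch, was at 27.4 CPM (5.66 to 80.2), 153 CPM and 188 CPM. For these 3 genes both Dox values lay above the control interval. In the 2 control members with Rgs5, Heyl was at 155 CPM (4 UMIs), against 182 and 177 CPM in the Dox members with Rgs5. All 3 control Nrarp UMIs also came from these 2 control cells. Hes1 was at 91.4, 93.8 and 81.4 CPM, a difference within the control's counting error, but 7 of the 10 control UMIs came from 1 cell and the level without it was 31.3 CPM. Since 5 control members carried Pdgfra, cell make-up and Dox cannot be told apart in these values.

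Within the Dox libraries, Heyl and Hey1 were higher in the members than in all other kept cells, by 1.83 and 3.64 for Heyl and by 1.99 and 1.82 for Hey1. Against the cells without Epcam the ratios were 1.67 and 6.15 for Heyl and 2.38 and 5.09 for Hey1. Nrarp was not higher in both, at 0.599 and 1.12. Fibroblast-type cells of the control, Dox replicate 1 and Dox replicate 2 had Notch1 at 16.1, 114 and 15.6 CPM. Their Heyl was at 0, 77.7 and 2.96 CPM, Hey1 at 1.15, 202 and 3.70 CPM and Nrarp at 0.576, 77.7 and 1.48 CPM. Dox replicate 1 had only 4 such cells and Dox replicate 2 had 33, and the cause of their difference was not tested. Notch3, the receptor of mural cells, was at 82.3 CPM (37.6 to 156) in the control members and at 119 and 161 CPM in the Dox members. Among members with Rgs5 alone, Notch3 was at 271 CPM in the control library (7 UMIs) and at 133 and 170 CPM in the Dox libraries. Its ratio was 2.46 and 3.79 against all others, and 4.55 and 15.5 against the cells without Epcam, which made it the 1 called gene of 12 Notch genes tested there. In the whole list of 16 tested against all other cells none was called higher, and the median log2 ratio was 0.10. The ligand Jag2 and the glycosyltransferase Lfng were lower, beside 8.99% of all tested genes, so nothing is read from this count.

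Myc was at 36.6 CPM (4 UMIs, 9.97 to 93.6) in the control members, 82.2 CPM (72.8 to 92.5) in Dox replicate 1 and 37.8 CPM (29.5 to 47.6) in Dox replicate 2. Both Dox values lay within the control interval, and the Dox libraries differed from each other by more than counting error. The 18 growth genes that respond to MYC, mostly of ribosome assembly, summed to 2350 CPM in the control members and to 10449 and 10322 CPM in the Dox members. The other kept cells had 3618, 9436 and 11402 CPM. Npm1, a nucleolar chaperone, was at 695 CPM in the control members and at 4590.3 and 4498 CPM in the Dox members. None of the 18 genes, and none of 18 ribosomal protein genes, differed 4-fold between members and other cells within the Dox libraries.

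**Figure D4:**
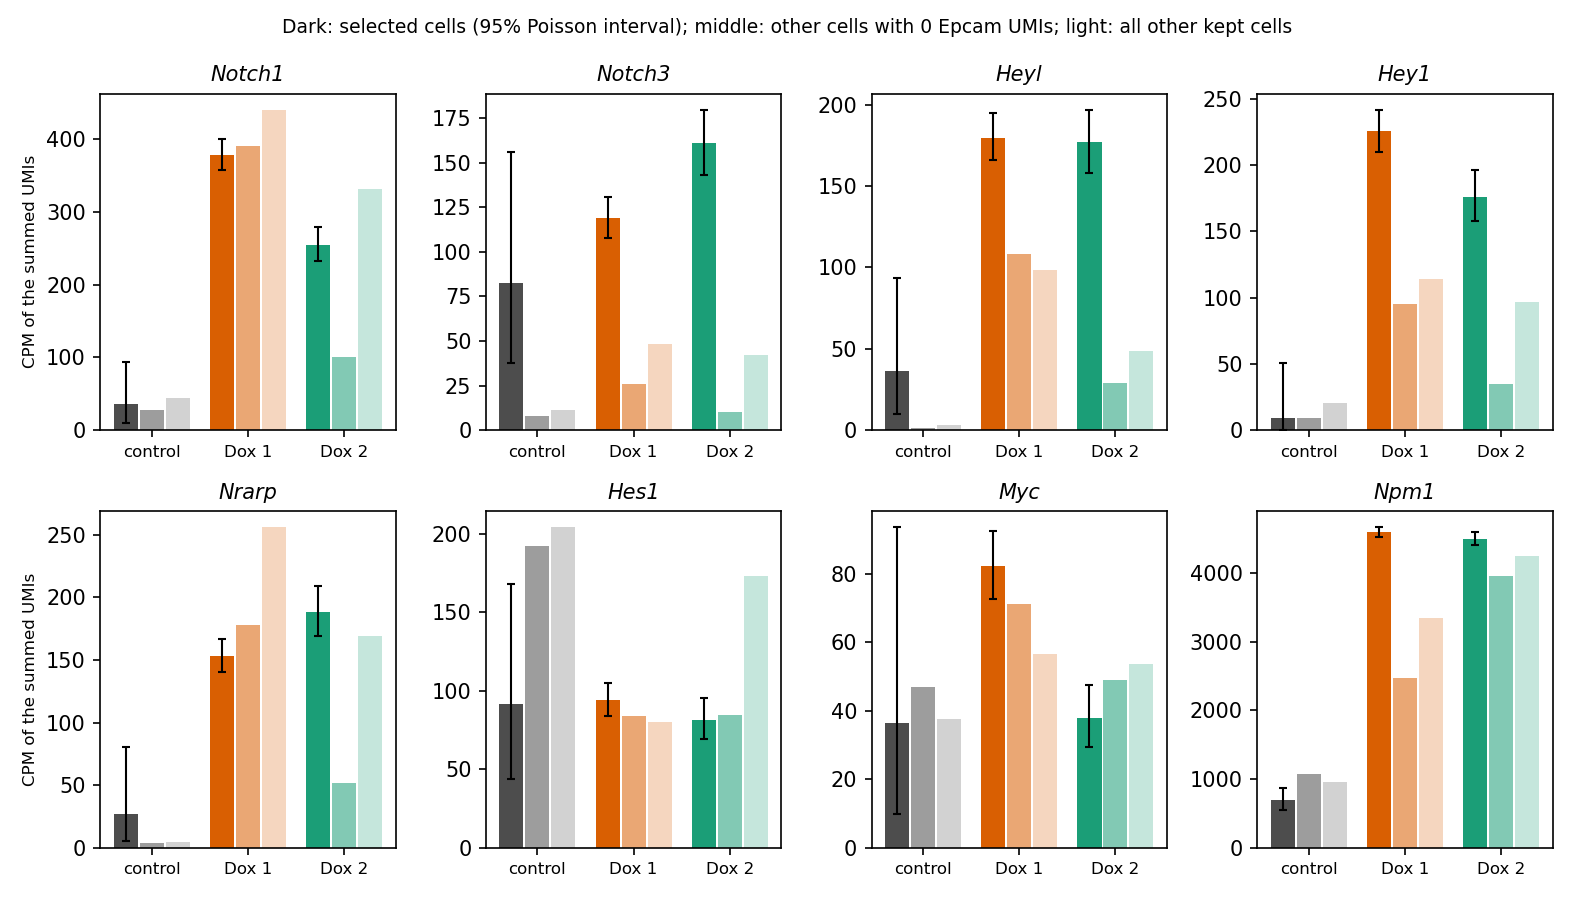
Bars give the CPM of the summed UMIs in each library for the selected cells (dark, with 95% Poisson intervals), other cells without Epcam UMIs (middle) and all other kept cells (light). Notch1, Hey1, Heyl and Nrarp are above the control interval in both Dox libraries, Myc and Hes1 are not, and Notch3 is highest in the selected cells of each library. The control interval is that of a sum of 7 cells, 5 of them with Pdgfra and without Rgs5.

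Genes of cell division were found in the Dox members. At least 3 of 12 genes of the G2 and M phases were detected in 45 of 88 members of Dox replicate 1 (51.1%, 40.2% to 61.9%) and in 26 of 55 of Dox replicate 2 (47.3%, 33.7% to 61.2%), and in none of the 7 control members, which allows a share of up to 41.0%. The other kept cells gave 7.58%, 33.2% and 51.0%. Thinned to 2000 UMIs, the shares were 25.6% and 16.4% for the members and 18.2% and 25.2% for the other kept Dox cells. The members were thus above the others in Dox replicate 1 and below them in Dox replicate 2 at equal depth, with overlapping intervals. Of the fibroblast-type cells of Dox replicates 1 and 2, 3 of 4 and 18 of 33 had at least 3 of the 12 genes. After thinning, 1 of 4 and 8 of 32 did, so these genes were not particular to the members. Mki67, a protein of dividing nuclei, was at 208 and 195 CPM in the Dox members and at 0 in the control members. With all UMIs, Mki67 was also found in 2 of 3 and 3 of 5 Dox cells with at least 3 neutrophil genes. At least 3 of the 12 genes were found in 1 of 3 and 2 of 5 of those cells. Whether RNA from outside the cells added to these counts was not tested. Ccnd1, a cyclin of the G1 phase outside the lists, was chosen after its values were seen. It was at 0.010 and 0.029 times its level in all other kept cells, most of which carried Epcam. Its ratio to the cells without Epcam is not given here, so nothing is read from it about division of the members. Thinned cells of the Dox libraries showed the epithelial keratin Krt8 in 0% of members, against 52.0% and 60.5% of other cells. With all UMIs it was found in 10.2% and 10.9% of the Dox members.

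**Figure D5:**
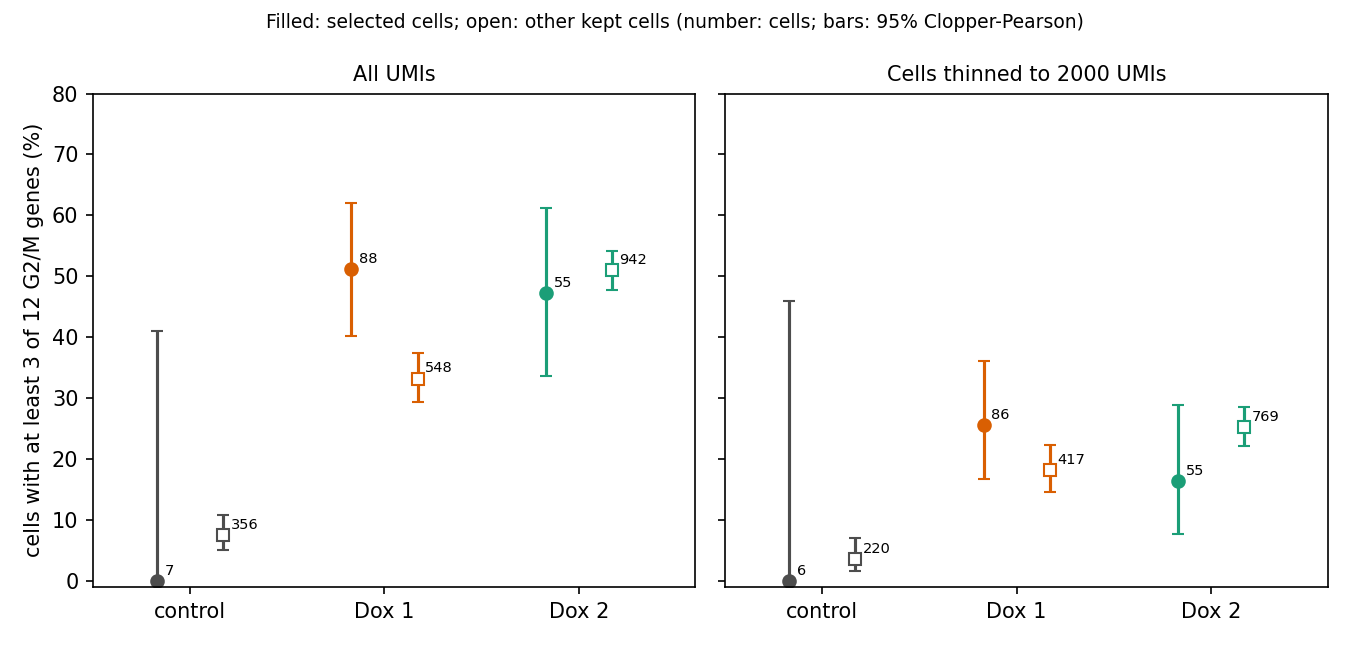
Points give the percent of cells with at least 3 of 12 G2 and M phase genes in each library, for the selected cells (filled) and other kept cells (open), with all UMIs on the left and cells thinned to 2000 UMIs on the right; bars are 95% Clopper-Pearson intervals and numbers are cells. Thinning takes the selected Dox cells from 51.1% and 47.3% to 25.6% and 16.4%, where their intervals overlap those of the other Dox cells.

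Inflammatory mediators were among the genes above all other cells. In that list 8 of 15 tested genes were higher, with a median log2 ratio of 2.88: Ccl11, Il6, Cxcl10, Il1r1, Vcam1, Cxcl1, Lif and Ccl2. Cxcl1, a neutrophil chemokine, was at 850.4 CPM in the control members (418 CPM without the cell that held 55 of 93 UMIs) and at 729 and 850.3 CPM in the Dox members. Il6 was at 36.6, 117 and 103 CPM, and was found in 44 and 33 Dox members. Vcam1, an adhesion molecule for leukocytes, was at 82.3, 106 and 131 CPM, and was the member of the list that kept the call against the cells without Epcam. Cxcl12, a chemokine of stromal cells, was at 512 CPM in the control members (264 CPM without the cell that held 32 of 56 UMIs) and at 5.34 and 9.04 CPM in the Dox members.

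Early response genes differed between the libraries. Fos was at 8458 CPM in the control members and at 1770.2 and 1783 CPM in the Dox members, and the 16 early response and heat shock genes summed to 31665, 7891 and 7104 CPM. The other kept cells had 12358, 8245 and 8867 CPM. In the Dox members 1 of the 16, the heat shock gene Hspa1b, was lower than in other cells, a share no larger than the 8.99% of all tested genes. Of 13 tested interferon-stimulated genes, Ifitm1 alone was higher, while 2.37% of all tested genes were. It was at 3219 CPM in the control members and at 1602 and 1471 CPM in the Dox members. Against the cells without Epcam its ratio was 4.10 and 1.57, so it lost the call. Of 10 p53 targets, Trp53inp1 was lower, at 19.0 and 14.9 CPM against 76.4 and 66.0 CPM, a count near the 8.99% of all tested genes called lower. Among 13 genes of hypoxia and glycolysis, only Ndufa4l2, also a pericyte marker, was higher, beside the same 2.37% of all tested genes. It lost the call against the cells without Epcam, with ratios of 3.39 and 2.49.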

How the data were processed

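The data are 3 single-cell libraries (10x Genomics 3' v3.1). The authors deposited matrices of raw UMI counts per gene and barcode; Cell Ranger 5.0, STAR, Seurat 3.2.2 and mm10 (GRCm38) are named, per the submitters' processing notes, while the file headers give a software version of 3.1.0. The aligner settings and the counting of introns are not given in the sources used here.

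A barcode was kept from 200 genes upward and up to 20% mitochondrial UMIs (363 control, 636 and 997 Dox cells). The members and gene lists were chosen with earlier results of these data known. Counts were summed per library (Python 3.11.15, numpy 2.4.6, scipy 1.17.1, pandas 2.3.3), scaled to CPM by their total and compared as ratios. A higher call also needed at least 10 UMIs in the members of each Dox library. Intervals of levels are exact 95% Poisson intervals. No doublet caller was run; members with genes of another type were left out as an alternative. Dox against control was not fitted, since the control library had under 10 members. TMM factors came from edgeR 4.0.16 (R 4.3.3) as an alternative. Alternatives chosen after seeing the data left out shared barcodes, members without Rgs5, members with defining genes of another type and the 3 deepest members. The summing and calling steps were tested on simulated data.

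Named genes were the 5 genes of the rule, the 20 called higher with the largest lower ratio of the Dox libraries, the 8 called lower with the most UMIs in other cells, up to 4 called and 4 abundant genes per list, and Notch1, Notch3, Myc and Malat1; other genes were chosen after their values were seen. Some genes of that set are summarised only in counts, and 1 is not reported here.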

Additional observations from a re-analysis of the deposited data

How the results depend on the processing

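The number of genes called higher, 282, became 70 against other kept cells without Epcam UMIs, 59 against fibroblast-type cells (47 of them among the 282, with only 4 such cells in Dox replicate 1) and 33 with cells thinned to 2000 UMIs, which left fewer genes to test. The number called lower, 1068, became 404, 15 and 135 in the same order, and 3746 without the minimum of UMIs. Leaving out a Dox library, which then rests the call on 1 library, gave 379 to 393 higher and 1450 to 1602 lower genes. TMM scaling, per-cell means, stricter rules or filters, shared barcodes and cells of little Malat1 left out moved neither count by over 1.5 times. Members among kept cells were 0.551% in the control library with a level of at least 500 CPM or with at least 1 Rgs5 UMI, and 0% on thinned cells. In Dox replicate 1 the share was 10.8% with at least 4 of the 5 genes, 10.1% with the level of 500 CPM, 7.16% on thinned cells, 9.59% with Rgs5 and 26.8% among cells without Epcam. In Dox replicate 2 it was 2.91% on thinned cells, 3.91% with Rgs5 and 15.3% among cells without Epcam. The shares with at least 3 G2 and M genes fell to 25.6% and 16.4% on thinned cells. Against cells without Epcam the log2 ratio changed sign for Lmod1 (0.61), Cdh1 (0.78) and Col1a2 (−0.38). Against fibroblast-type cells it did so for Col1a2 (−1.99), Col3a1 (−0.98), Col5a2 (−1.25), Bgn (−1.09), Lif (−0.74), Tbx18 (−0.59), Prrx1 (−0.50), Eng (−0.48) and Trp53inp1 (0.46). No other called gene of the lists or the named set that is reported here changed sign, where both sides had UMIs. The genes outside them that were chosen after their values were seen had no such check. The cause of these changes was not tested. Other scalings and tools for Dox against control were not run, because that comparison was not fitted. Members and other kept cells were compared within each library, and no pairing of Dox with control libraries was used. The results come from no test.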

Other observations

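Further genes stood at least 4-fold above all other kept cells and above the cells without Epcam in both Dox libraries, outside every list; they were chosen after their values were seen. Abcb1a, the drug efflux pump of vessel barriers, was 26.5 and 27.1 times as high as in all other kept cells. Aoc3, an amine oxidase of vessel walls, was 16.3 and 17.7 times as high, and Pth1r, the parathyroid hormone receptor, 24.1 and 23.4 times. Foxc2, a forkhead factor of mesenchyme and vessels, was 41.8 and 28.4 times as high. Pgf, a growth factor of the VEGF family, was 8.59 and 14.5 times as high, with 587 and 305 UMIs in the members. Against the cells without Epcam the ratios were 5.63 and 5.03 for Abcb1a and 11.8 and 6.58 for Aoc3. They were 8.77 and 4.84 for Pth1r, 10.4 and 4.81 for Foxc2 and 5.06 and 11.4 for Pgf. Against fibroblast-type cells Pgf alone of these genes was called. The others were below 4-fold in Dox replicate 1, which had only 4 such cells.

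Of the 282 genes, 31 were called higher against all 3 comparators, fibroblast-type cells included. They held Higd1b, Abcc9, Kcnj8, Rgs5, Ramp1, Dlk1, Gucy1a1, Gucy1b1, Tcf15, Lrrc32, Esam and Gjc1. Dlk1, a secreted and membrane-bound relative of the Notch ligands, was found in 21 and 14 members, at 30.9 and 36.2 CPM, and had 0 UMIs in the control members.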
